A study of Mus musculus with 24 samples.

Results

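Cholesterol and fatty acid synthesis genes were followed in mouse bone marrow-derived macrophages treated with lipopolysaccharide (LPS), the glucocorticoid dexamethasone, or both. The group holds 38 genes of the 55357 in the count table, chosen by name for their function and found through their Ensembl identifiers. The choice was made with earlier results of these data known. All 38 passed the filter on low counts, as did 14985 genes in all. They comprise 5 genes of the sterol sensor (Srebf1, Srebf2, Scap, Insig1, Insig2), 18 enzymes of cholesterol synthesis, the sterol carrier Stard4, 8 fatty acid genes, the liver X receptors Nr1h2 and Nr1h3 with their targets Abca1, Abcg1 and Mylip, and the oxysterol enzyme Ch25h. The macrophages were grown from wild-type C57BL/6J mice of 8 to 12 weeks in medium with L929 supernatant as the source of M-CSF. At each of 2 times, 4 h and 24 h, cells were left untreated, given 100 nM dexamethasone, given 100 ng LPS (the volume is not named), or given both, with 3 libraries per group and 24 in all. No label tells whether the 3 libraries come from separate mice, so p-values measure the spread between these libraries, which may be technical. The submitters asked how the action of a glucocorticoid against inflammation changes with time.

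Cells sense cholesterol in the endoplasmic reticulum. When sterols are scarce, Scap escorts the SREBP proteins, encoded by Srebf1 and Srebf2, to the Golgi, where they are cut into transcription factors that bind sterol regulatory elements in genes of cholesterol synthesis, uptake and fatty acid synthesis. Insig1 and Insig2 hold Scap back when sterols are plentiful, and Insig1 is itself a target. Liver X receptors answer to oxysterols in the opposite situation and raise the cholesterol exporters Abca1 and Abcg1, the ubiquitin ligase Mylip, which degrades lipoprotein receptors, and Srebf1. Ch25h makes 25-hydroxycholesterol, an oxysterol that blocks SREBP processing and is known as an antiviral product of activated macrophages.

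The 4 promoters below, as given by RefSeq on GRCm38.p6, were picked because each holds an element tied to one of these arms of control. RefSeq entries matched 30 of the 38 genes, with 39 promoter windows, and the 250 bases before each start were searched on both strands. Capitals mark a sterol regulatory element core (TCACNCCAC), a liver X receptor element core (GGTTA and GGTCA with 5 bases of any kind between them, seen here from its other strand) or an NF-Y box (CCAAT, or ATTGG on the other strand), the box of a factor that works beside SREBP. Hmgcs1 lies at chr13:119690101-119690350 on the plus strand. Abca1 is shown at chr4:53159896-53160045, Srebf1 at chr11:60210572-60210721 and Fasn at chr11:120824548-120824797, all on the minus strand. CCAATTGG in Fasn holds the box on both strands, which overlap. In the annotation of the count table (GENCODE M29, of another build) these genes span chr13:120151915-120169796, chr4:53030787-53159895 and chr11:60089915-60113407 for Hmgcs1, Abca1 and Srebf1.
Hmgcs1: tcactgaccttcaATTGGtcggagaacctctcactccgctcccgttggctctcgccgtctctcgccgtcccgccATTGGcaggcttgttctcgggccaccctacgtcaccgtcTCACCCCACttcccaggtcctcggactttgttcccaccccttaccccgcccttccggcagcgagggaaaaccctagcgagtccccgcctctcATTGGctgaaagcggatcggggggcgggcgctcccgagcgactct
Abca1: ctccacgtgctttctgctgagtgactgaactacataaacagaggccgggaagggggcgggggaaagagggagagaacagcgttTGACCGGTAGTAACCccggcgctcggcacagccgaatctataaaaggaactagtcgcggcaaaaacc
Srebf1: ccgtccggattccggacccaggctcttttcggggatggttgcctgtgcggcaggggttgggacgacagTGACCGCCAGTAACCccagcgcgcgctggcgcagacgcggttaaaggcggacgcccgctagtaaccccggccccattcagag
Fasn: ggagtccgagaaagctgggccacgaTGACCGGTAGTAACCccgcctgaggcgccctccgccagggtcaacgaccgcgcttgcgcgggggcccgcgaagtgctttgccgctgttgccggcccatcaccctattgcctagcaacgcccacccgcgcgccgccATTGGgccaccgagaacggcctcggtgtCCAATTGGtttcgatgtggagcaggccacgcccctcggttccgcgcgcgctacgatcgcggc

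The liver X receptor core was present in Abca1, Srebf1 and Fasn among these genes and in 0.0457% of 32851 promoters of the same length. Abca1 and Fasn carry the same 15 letters, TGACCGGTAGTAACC. The sterol regulatory core was present in Hmgcs1 alone, against 1.05% of all promoters. That is 1 of 16 sterol targets and 0 of 5 fatty acid targets with an entry. With the liver X receptor core also in the fatty acid gene Fasn, these letters do not separate the lists. NF-Y boxes were found in 15 of 19 promoter windows of sterol targets (78.9%), 2 of 5 of fatty acid targets (40%) and 3 of 5 of liver X receptor targets (60%), against 33.8% of all promoters. By gene, 15 of the 16 sterol targets with an entry hold one. A glucocorticoid response element core (GNACA and TGTNC with any 3 bases between them) was in none of the 39 windows and in 0.387% of all promoters. These matches describe letters in a short window and are not measured binding.

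Libraries held 18326206 to 27908164 counts, of which the 38 genes made up 0.152 to 0.327%. Levels are given as CPM, counts of a gene per 1000000 counts of its TMM-scaled library, and differences as log2 fold changes with their standard error. A gene is called higher or lower at an adjusted p below 0.05 by edgeR's quasi-likelihood F test, adjusted by Benjamini-Hochberg across the 14985 genes, and "rose" and "fell" mean such a call. The glucocorticoid target Tsc22d3 rose from 37.2 to 962 CPM with dexamethasone at 4 h, and the LPS target Il1b from 1.1 to 6554 CPM with LPS. All 6 macrophage markers were present, with a summed level of 16281 to 50964 CPM per library. Summed markers of other lineages stayed between 0 and 144 CPM, and the neutrophil marker Ly6g had 5 counts in all 24 libraries. Some of these sums moved with the groups, and part of those are given beside the comparisons. Among the others, mast cell and basophil markers were 2.86 CPM untreated at 4 h and 10.9 CPM untreated at 24 h. With dexamethasone at 24 h they were 0.649 CPM. Neutrophil markers were 25.6 CPM with LPS and 102 CPM with both at 24 h. Dendritic cell markers were 3.52 CPM untreated and 15.9 CPM with dexamethasone at 4 h. The part of these markers in the results was not tested. Summed adipocyte markers, from a cell type rich in fatty acid synthesis, reached at most 0.184 CPM. In bulk libraries, less RNA per cell and fewer cells of a type cannot be told apart. The table was counted without regard to strand, and 14 of the 38 genes share 0.529 to 26.7% of their exon bases with another gene. Fdps shares most and, at 0.999 to 6.41 CPM, has few counts, so its values are uncertain. The share is 18.8% for Fdft1, 13.2% for Scap, 12.1% for Hmgcs1 and Tm7sf2 and 11.5% for Ch25h.

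**Figure D1:**
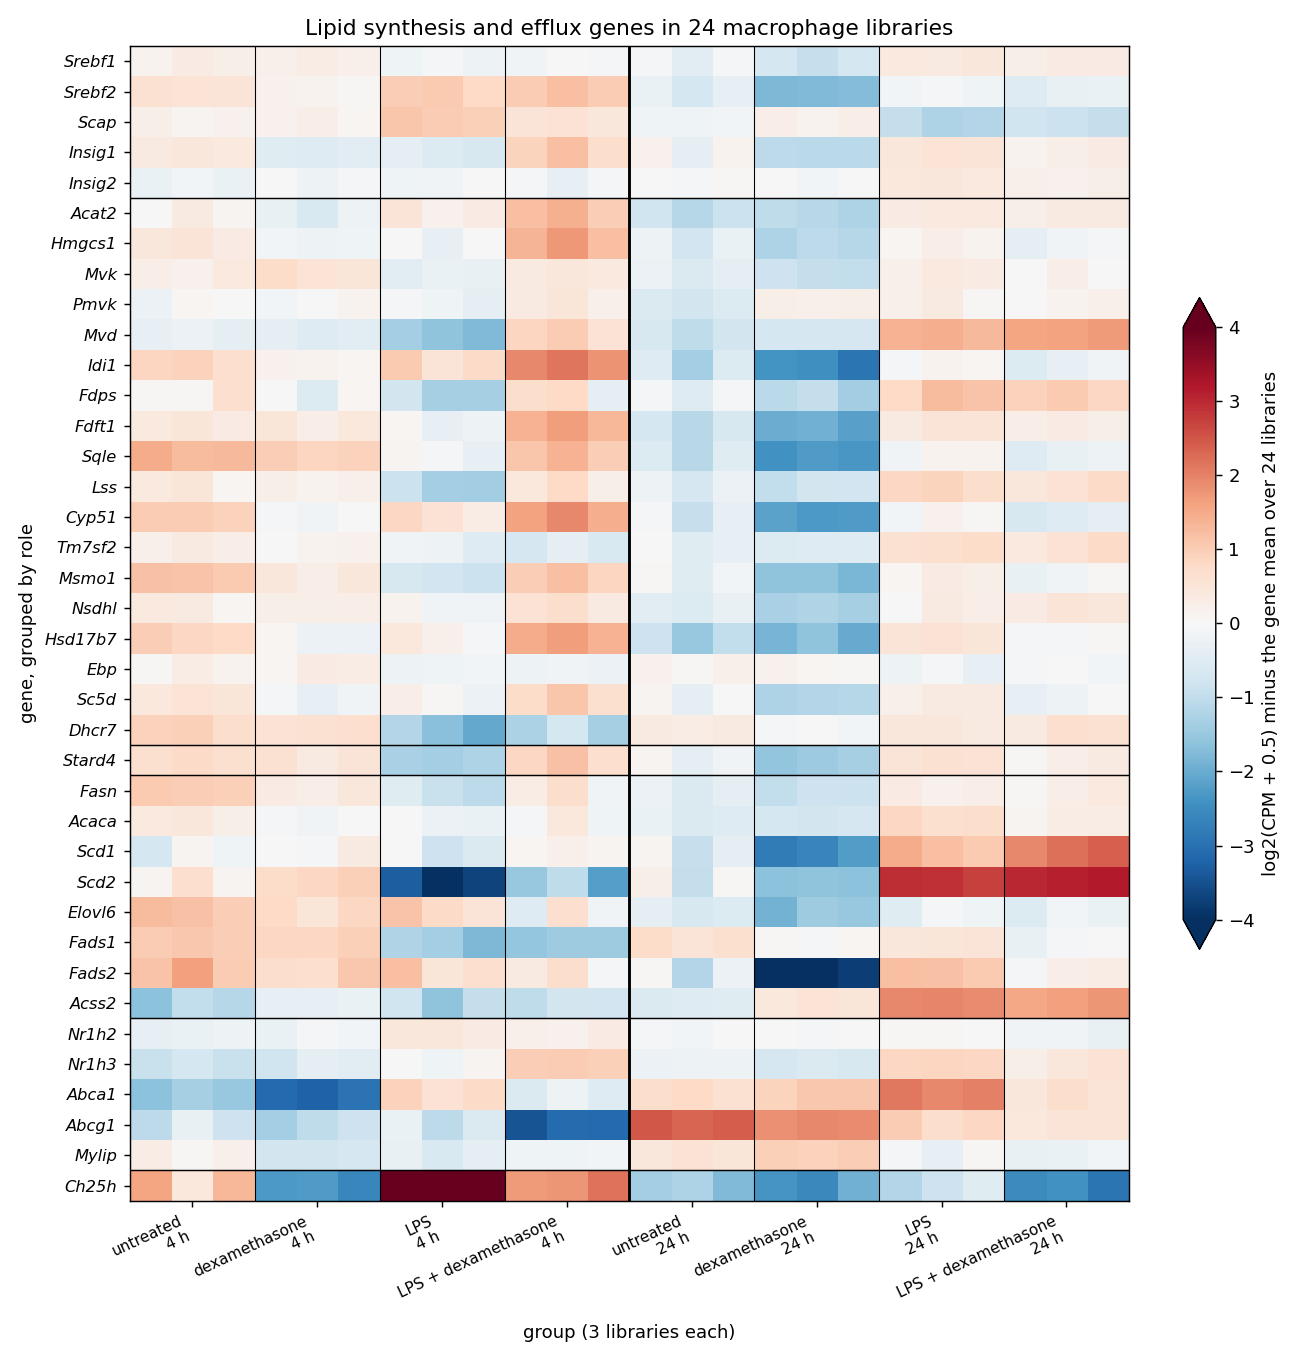
Each column is 1 of 24 libraries and each row 1 of 38 genes, with horizontal lines between roles. The colour gives log2(CPM + 0.5) minus the mean of that gene over all libraries, from -4 to 4, with stronger colours at the limits. Most sterol genes are red in the combined group at 4 h and blue in dexamethasone alone at 24 h, while Scd2 and Ch25h show the widest swings.

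In untreated cells the synthesis genes were lower at 24 h than at 4 h and the exporters higher. Of the 38 genes, 7 were higher and 27 lower at 24 h, against 30.6% and 30.4% of all genes tested. Among the 20 sterol regulatory element targets of sterol metabolism (the 18 enzymes, Insig1 and Stard4), 18 fell and 0 rose, with a median log2 difference of -0.71 against 0.01 over all genes. Sqle, the squalene epoxidase, fell from 161, 139.9 and 142 to 39.3, 26.5 and 40.5 CPM (log2 -2.07 ± 0.15, adjusted p = 5.54e-10). Hsd17b7, a sterol ketoreductase, fell from 36.4, 33.1 and 32.1 to 10.0, 6.02 and 8.91 CPM (log2 -2.04 ± 0.13, adjusted p = 3.78e-14). The groups did not overlap for either enzyme. Abcg1, which exports cholesterol to high-density lipoprotein, stood at 26.7, 44.9 and 31 CPM at 4 h and 316, 285 and 298 CPM at 24 h (log2 3.15 ± 0.18, adjusted p = 4.64e-11). Abca1, which loads cholesterol onto apolipoprotein A-I, rose alongside it from 46.8 ± 5.39 to 216 ± 12.4 CPM (SD, n = 3; log2 2.21 ± 0.11, adjusted p = 5.11e-13). Srebf2 fell from 323 ± 9.68 to 162 ± 23.9 CPM (log2 -0.99 ± 0.08, adjusted p = 3.21e-11), whereas Nr1h3 rose (log2 0.62 ± 0.09, adjusted p = 1.32e-07). Sterol genes were lower in library 2 of the untreated 24 h group than in the other two, by mean log2 levels of -0.27 against 0.17 and 0.10 around the group mean. Without that library the same count, 18, fell. All 6 tested neutrophil markers fell between the times as well, their sum going from 35.8 ± 4.56 to 9.09 ± 1.93 CPM, and their part in these differences was not tested.

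LPS alone lowered most sterol targets and part of the fatty acid genes at 4 h, and raised Abca1 and Ch25h. The call was higher for 6 of the 38 genes and lower for 23, against 34.2% and 38.8% of all genes tested. Sterol targets fell in 17 of 20 cases and rose in 0, with a median of -0.59 against -0.07 over all genes. Dhcr7, which catalyses the last reduction to cholesterol, had 40.7, 41.9 and 35.4 CPM in untreated and 9.2, 6.34 and 4.81 CPM in LPS libraries (log2 -2.52 ± 0.15, adjusted p = 2.34e-15). Stard4, which carries sterols between membranes, went from 69.5, 76.2 and 69.3 to 17.8, 16.7 and 18.6 CPM (log2 -2.01 ± 0.13, adjusted p = 2e-12). Msmo1, a methylsterol oxidase, went from 194, 192 and 179.6 to 55.6, 50.4 and 47.1 CPM (log2 -1.89 ± 0.12, adjusted p = 2.92e-11). All untreated libraries exceeded all LPS libraries for these 3 genes. Hmgcs1, the HMG-CoA synthase at the start of the pathway, fell as well (log2 -0.54 ± 0.14, adjusted p = 0.00216). Acat2, Pmvk and Idi1 were not called, with log2 values of 0.20, -0.15 and -0.02. The fall of Cyp51 (log2 -0.40 ± 0.16) was not called without untreated library 1 or 2 or LPS library 2 or 3, with adjusted p-values of 0.0786, 0.0787, 0.0781 and 0.17 in edgeR's test.

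Part of the fatty acid genes fell at the same time. Of 8, 4 fell and 0 rose, against 38.8% and 34.2% of all genes, with a median of -0.51. With scaling by library size only, 8 fell and 0 rose, with a median of -1.28. In that setting 9779 of the 14985 genes tested fell and 2434 rose, and the median of all genes shifts by -0.77. Scd2, a stearoyl-CoA desaturase that makes monounsaturated fatty acids, dropped from 96.5, 142 and 97.2 CPM to 8.63, 4.85 and 6.44 CPM (log2 -4.06 ± 0.35, adjusted p = 7.01e-09), which is 16.7-fold lower. Fads1, a desaturase of polyunsaturated fatty acids, went from 165, 171 and 160.5 to 35, 31.5 and 22.9 CPM (log2 -2.47 ± 0.10, adjusted p = 1.67e-18). Fasn, the fatty acid synthase, went from 180.1, 175 and 169 to 62.9, 46.6 and 41.8 CPM (log2 -1.79 ± 0.17, adjusted p = 2.93e-08). Scd1, Elovl6, Fads2 and Acss2 were not called, with log2 values from -0.48 to 0.22. LPS thus left no overlap between groups for Scd2, Fads1 and Fasn, while the libraries of Elovl6 and Fads2 overlapped.

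Ch25h and Abca1 moved the other way at 4 h. Ch25h rose from 11, 4.66 and 9.07 to 367, 395 and 344 CPM, 43.5-fold (log2 5.44 ± 0.19, adjusted p = 4.69e-15), the largest difference of any of the 38 genes in this comparison. Abca1 rose from 42, 52.6 and 45.7 to 249, 198 and 225 CPM (log2 2.26 ± 0.11, adjusted p = 1.33e-13). The other liver X receptor targets did not follow: Abcg1 had overlapping values (log2 0.12 ± 0.19, adjusted p = 0.58), and Mylip and Srebf1 fell (log2 -0.63 ± 0.08 and -0.39 ± 0.07, adjusted p = 1.68e-08 and 1.47e-05). Scap, Srebf2, Nr1h3 and Nr1h2 were called higher (log2 0.86, 0.38, 0.82 and 0.67). These 4 rises depend on the scaling, since TMM factors were 0.679 to 0.705 in these LPS libraries and 1.17 to 1.18 in the untreated ones. Scaled by library size only, where the median of all genes shifts by -0.77, Srebf2 was lower at -0.39, Nr1h2 was at -0.10, and Scap and Nr1h3 were at 0.09 and 0.05 without a call. Of the genes without a call, Insig2, Acat2, Acss2 and Abcg1 changed sign, to -0.67, -0.57, -0.55 and -0.65, and all 4 were then called lower. The split of the 38 genes was then 2 higher and 33 lower, and that of the 20 sterol targets 0 and 20. Of the 14985 genes tested, 2434 were higher and 9779 lower in that setting. Summed dendritic cell markers went from 3.52 ± 0.671 to 34 ± 4.85 CPM with LPS at 4 h, with 4 of 6 called higher, and summed neutrophil markers from 35.8 ± 4.56 to 80.6 ± 13.2 CPM. Most of the dendritic sum with LPS was Ccr7 (21.86, 15.7 and 23.5 CPM) and Xcr1 (10.25, 10.05 and 9.31 CPM). With both agents at 4 h the dendritic sum was 12.7 ± 1.47 CPM, and the part of these markers in the results was not tested.

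After 24 h of LPS the same lists stood above untreated cells. The call was higher for 29 and lower for 4 of the 38 genes, against 29.7% and 30.6% of all genes. Among the 20 sterol targets 18 rose and 1 fell, with a median of 0.74 against -0.02 over all genes. Mvd, the mevalonate diphosphate decarboxylase, rose from 19.6, 14.8 and 18.2 to 81, 84.6 and 76.2 CPM (log2 2.21 ± 0.09, adjusted p = 8.76e-21). Hsd17b7 rose from 10.0, 6.02 and 8.91 to 26.2, 27.8 and 25.9 CPM (log2 1.69 ± 0.14, adjusted p = 3.12e-12). Ebp, a sterol isomerase, was the gene that fell (log2 -0.35 ± 0.08, adjusted p = 0.000159), and Dhcr7 was not called (log2 0.07 ± 0.12, adjusted p = 0.669). The Cyp51 and Sc5d rises (log2 0.45 and 0.40) were lost without untreated library 2 (adjusted p = 0.163 and 0.103) or LPS library 2 (0.114 and 0.0578) or LPS library 3 (0.062 and 0.0524). Leaving out untreated library 2 left 16 sterol targets higher and 1 lower.

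Fatty acid genes showed the largest rises at 24 h. Of 8 genes 6 rose and 0 fell, against 29.7% and 30.6% of all genes, with a median of 1.36 (6 and 1 when scaled by library size only). Scd2 reached 691, 678 and 602 CPM from 106, 45.8 and 91.6 CPM, 8.14-fold higher (log2 3.02 ± 0.26, adjusted p = 1.52e-08). Acss2, which makes acetyl-CoA from acetate, rose from 4.17, 4.3 and 4.48 to 25.8, 26.2 and 25.3 CPM (log2 2.57 ± 0.14, adjusted p = 4.04e-18). Scd1, Fads2 and Acaca, the acetyl-CoA carboxylase, rose by log2 1.67 ± 0.25, 1.54 ± 0.27 and 1.18 ± 0.11. Among liver X receptor targets Abca1 rose from 215, 229 and 204 to 573, 498 and 542 CPM (log2 1.32 ± 0.10, adjusted p = 5.45e-10), Abcg1 fell from 316, 285 and 298 to 113, 91.4 and 99.4 CPM (log2 -1.57 ± 0.17, adjusted p = 1.93e-07), Srebf1 rose (log2 0.57 ± 0.07, adjusted p = 1.81e-08) and Mylip fell (log2 -0.60 ± 0.08, adjusted p = 2.53e-08). The 2 exporters thus moved in opposite directions with no overlap between groups. Scap, called higher at 4 h, was 45.6, 45.4 and 47.4 CPM in untreated and 26.1, 21.6 and 22.2 CPM in LPS libraries (log2 -0.98 ± 0.07, adjusted p = 1.33e-14). Ch25h was back at 1.19, 1.67 and 2.23 CPM, against 0.996, 1.13 and 0.627 CPM in untreated cells, and was not called (log2 0.86 ± 0.50, adjusted p = 0.153).

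**Figure D2:**
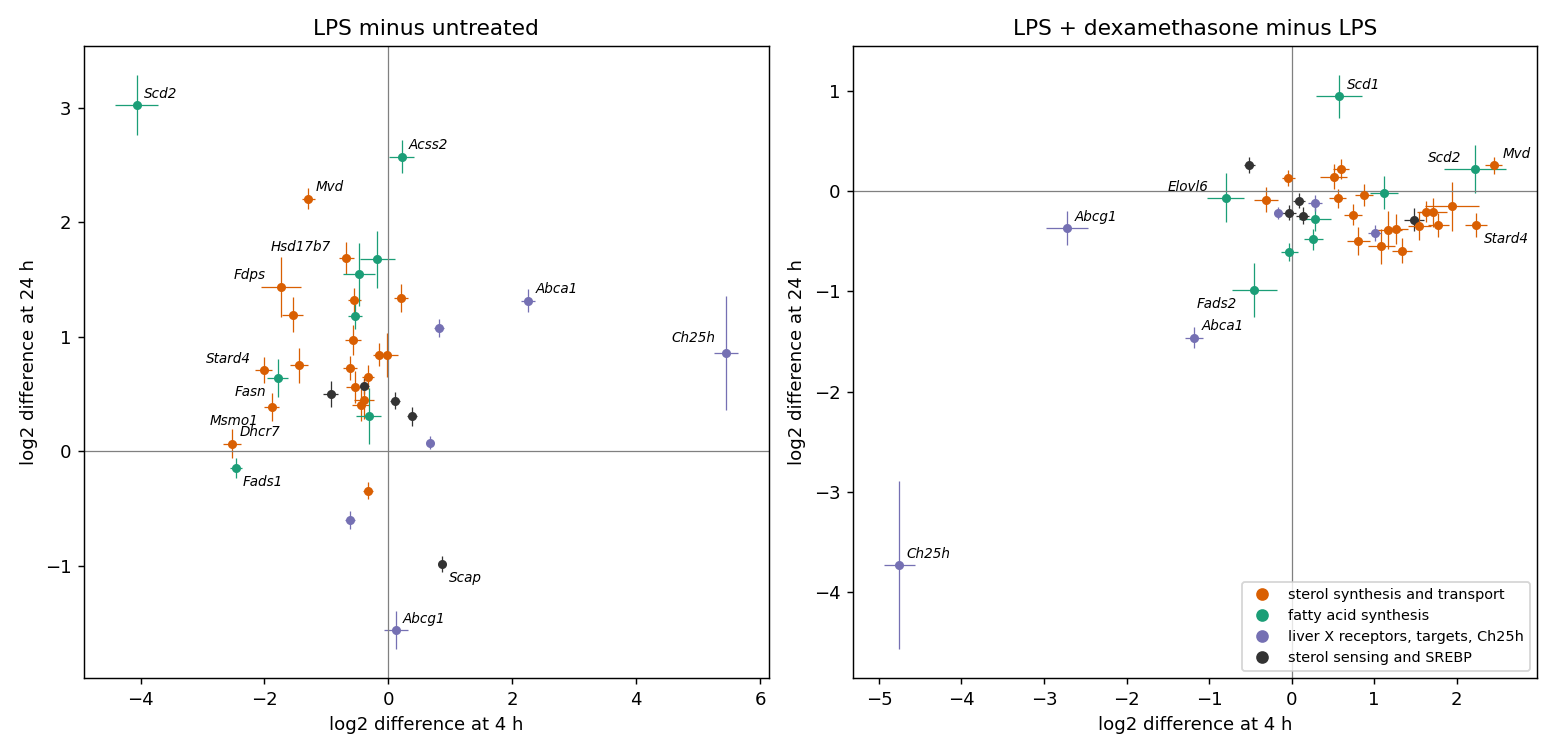
Each point is 1 of 38 genes, placed by its log2 difference at 4 h (horizontal) and at 24 h (vertical), with standard errors as lines. The left panel is LPS minus untreated and the right panel LPS + dexamethasone minus LPS. Scd2 lies at -4.06 and 3.02 on the left, and Mvd at 2.45 and 0.26 on the right.

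The LPS effect itself differed between the times for 33 of the 38 genes, against 61.3% of all genes, 28 toward a higher and 5 toward a lower value at 24 h (all genes 30.8% and 30.5%). Of the 20 sterol targets 19 were called and all 19 were higher, with a median difference of 1.49 against 0.01. Scd2 led with 7.08 ± 0.43 (adjusted p = 1.06e-10), the largest difference upward of the 38 genes. Ch25h had the largest downward, at -4.59 ± 0.64 (adjusted p = 4.83e-06). Among the sterol targets the highest were Mvd at 3.50 ± 0.14 (adjusted p = 4.09e-21), Fdps, whose counts are few, at 3.17 ± 0.42 (adjusted p = 3.67e-08), Lss at 2.73 ± 0.23 (adjusted p = 1.42e-09) and Stard4 at 2.72 ± 0.18 (adjusted p = 3.89e-12). Ebp was the sterol target without a call (log2 -0.02 ± 0.11, adjusted p = 0.918). Scaled by library size only, it was higher, at 0.55, and Srebf2 changed from -0.08 to 0.49. The liver X receptor targets did not share one direction: Srebf1 was higher (log2 0.96 ± 0.10), Abca1 and Abcg1 lower (-0.95 ± 0.15 and -1.69 ± 0.25), and Mylip was not called (log2 0.02 ± 0.11, adjusted p = 0.889).

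Dexamethasone alone lowered part of the pathway at 4 h. Calls among the 38 genes were 3 higher and 15 lower, against 17.6% and 23.7% of all genes. Among the 20 sterol targets 9 fell and 1 rose, with a median of -0.35 against -0.04. Insig1 went from 107, 114 and 109 to 59.4, 57.4 and 61.3 CPM (log2 -0.89 ± 0.12, adjusted p = 3.56e-06). Cyp51, the lanosterol demethylase, fell from 142 ± 5.14 to 68.2 ± 4.1 CPM (log2 -1.05 ± 0.17, adjusted p = 4.72e-05). Stard4 and Mvd, which LPS had lowered, were not called (log2 -0.18 ± 0.11, adjusted p = 0.212, and log2 -0.14 ± 0.10, adjusted p = 0.256). Of the 8 fatty acid genes 1 rose and 2 fell, with a median of -0.28, and the share lower, 25%, was near the 23.7% of all genes. The sharpest change was in Ch25h. Ch25h went from 11, 4.66 and 9.07 to 0.278, 0.298 and 0.127 CPM, the latter resting on 16 counts in 3 libraries (log2 -5.15 ± 0.47, adjusted p = 3.43e-08). Abca1 fell from 42, 52.6 and 45.7 to 14.8, 13.6 and 16.5 CPM (log2 -1.64 ± 0.13, adjusted p = 1.35e-09) and Mylip from 51.1 ± 4.87 to 26.9 ± 0.645 CPM (log2 -0.93 ± 0.08, adjusted p = 6.13e-12). Acss2 rose (log2 1.11 ± 0.17, adjusted p = 2.01e-06). The rises of Mvk (log2 0.32) and Nr1h3 (0.29) and the fall of Sqle (-0.43) were not called without dexamethasone library 1 (adjusted p = 0.0798), dexamethasone library 2 (0.0629), and untreated library 1 or dexamethasone library 2 (0.0747 and 0.0615).

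At 24 h dexamethasone alone lowered most genes of both synthesis lists. Calls were higher for 5 and lower for 25 of the 38 genes, against 21.9% and 26.5% of all genes. Of the 20 sterol targets 15 fell and 1 rose, with a median of -0.84 against 0.00. Srebf2 itself went from 179.7, 135 and 172 to 61.8, 63.6 and 64.7 CPM (log2 -1.36 ± 0.08, adjusted p = 1.69e-13). Idi1, the isopentenyl diphosphate isomerase, went from 19.2, 10.3 and 18.5 to 4.89, 4.6 and 3.19 CPM (log2 -1.91 ± 0.24, adjusted p = 2.4e-06). Cyp51 went from 67, 37.5 and 57.4 to 15.8, 14.2 and 14.6 CPM (log2 -1.85 ± 0.20, adjusted p = 3.07e-07). Every dexamethasone library was below every untreated one in these 3 genes. Pmvk, the phosphomevalonate kinase, was the sterol gene that rose (log2 0.87 ± 0.10, adjusted p = 2.31e-09). Among the fatty acid genes 6 of 8 fell, with a median of -0.90, and Acss2 rose (log2 1.09 ± 0.15, adjusted p = 1.14e-07). Fads2, a desaturase like Fads1, was at 0.912, 1.29 and 1.68 CPM against 30.1, 12.8 and 24.7 CPM (log2 -4.11 ± 0.45, adjusted p = 6.04e-07), 17.2-fold lower. Scd1 fell from 8.47, 3.95 and 6 to 0.705, 0.848 and 1.26 CPM (log2 -2.69 ± 0.37, adjusted p = 4.43e-06). The 2 groups did not overlap for Fads2, Scd1, Pmvk or Acss2. Without untreated library 2, in which sterol genes were low, 16 sterol targets fell and 1 rose. The summed neutrophil markers were 129 ± 13.4 CPM with dexamethasone at 24 h against 9.09 ± 1.93 CPM in untreated cells, with 1 of 6 called higher and 1 lower. Nearly all of that sum was 1 gene, Mmp8, at 142, 124 and 117 CPM with dexamethasone and 7.79, 5.44 and 8.42 CPM untreated. The part of these markers was not tested.

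Liver X receptor targets answered to dexamethasone alone in both directions at 24 h. Abcg1 fell from 299.9 ± 15.8 to 206 ± 8 CPM (log2 -0.54 ± 0.16, adjusted p = 0.00981) and Srebf1 from 76.6 ± 10.2 to 50.4 ± 4.28 CPM (log2 -0.60 ± 0.07, adjusted p = 2.06e-08). Mylip rose from 63.4 ± 3.23 to 86.4 ± 2.04 CPM (log2 0.44 ± 0.08, adjusted p = 6.18e-06). Abca1 rose slightly (log2 0.31 ± 0.10, adjusted p = 0.0166), a call lost without untreated library 3 or dexamethasone library 2 or 3 (adjusted p = 0.0712, 0.065 and 0.0588). The small falls of Lss (-0.47) and Fasn (-0.52) were also lost without untreated library 1 (adjusted p = 0.0903 and 0.0763) or dexamethasone library 1 (0.0957 and 0.0635), and that of Lss without untreated library 3 (0.0867). The effect of dexamethasone without LPS differed between the times for Abca1, from -1.64 at 4 h to 0.31 at 24 h (difference 1.95 ± 0.17, adjusted p = 1.12e-08), and for Mylip, from -0.93 to 0.44 (difference 1.37 ± 0.11, adjusted p = 2.94e-12). It also differed for Fads2 (-3.64 ± 0.54, adjusted p = 4.99e-05), which fell at 24 h. This difference was called for 20 of the 38 genes, against 30.7% of all genes, 5 higher and 15 lower (all genes 13.8% and 16.8%). Of the 20 sterol targets 1 was higher and 8 lower, with a median of -0.40, and of the 8 fatty acid genes 0 and 4.

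In cells that also received LPS, dexamethasone had the opposite effect on sterol genes at 4 h. Compared with LPS alone, 22 of the 38 genes were higher and 6 lower, against 23.9% and 25.4% of all genes. Sterol targets rose in 18 of 20 cases and fell in 0, with a median of 1.22 against 0.00. Mvd rose from 11.7, 9.65 and 8.69 to 55.9, 62.7 and 46 CPM, 5.45-fold (log2 2.45 ± 0.11, adjusted p = 6.56e-20). Stard4 rose from 17.8, 16.7 and 18.6 to 79.5, 101 and 70.3 CPM (log2 2.24 ± 0.13, adjusted p = 1.39e-12). Neither gene overlapped between the groups. Hmgcs1 rose from 69.2, 55.4 and 69.5 to 178, 231 and 159 CPM (log2 1.55 ± 0.14, adjusted p = 3.04e-08). Insig1 rose from 63.9, 56.1 and 52.9 to 155, 193 and 137 CPM (log2 1.48 ± 0.12, adjusted p = 2.56e-09). In all 4 genes the lowest combined library stood above the highest LPS library. Library 2 of the combined group was the highest in each of them. Without it 17 sterol targets rose and 1 fell.

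The rise was uneven along the pathway. Enzymes from Acat2 to squalene and lanosterol were all called, from log2 0.56 for Pmvk to 2.45 for Mvd. Fdft1, the squalene synthase, rose from 25.7 ± 3.94 to 79.5 ± 11 CPM (log2 1.62 ± 0.10, adjusted p = 2.94e-14). Tm7sf2, a sterol reductase, and Ebp were not called (log2 -0.31 ± 0.15 and -0.04 ± 0.08, adjusted p = 0.0871 and 0.7). Dhcr7 stayed at 8.52, 12.8 and 8.14 CPM against 9.2, 6.34 and 4.81 CPM under LPS, with overlapping libraries (log2 0.51 ± 0.17, adjusted p = 0.0138). Its call was lost without LPS library 2 or 3 or combined library 2 (adjusted p = 0.0606, 0.101 and 0.156). Srebf2 and Srebf1 were not called (log2 0.14 ± 0.08, adjusted p = 0.163, and log2 0.09 ± 0.07, adjusted p = 0.358), and Scap fell (log2 -0.51 ± 0.06, adjusted p = 2.47e-08).

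Fatty acid genes took little part in this rise. Of 8, 2 rose and 1 fell, with a median of 0.27. The share higher, 25%, was near the 23.9% of all genes, and 25.4% of all genes were lower. With scaling by library size only, 5 rose and 1 fell, against 5974 and 2365 of the 14985 genes tested. Scd2 rose from 8.63, 4.85 and 6.44 to 30.8, 44.1 and 19.1 CPM (log2 2.22 ± 0.38, adjusted p = 9.35e-05), still below the 96.5, 142 and 97.2 CPM of untreated cells. Fasn rose from 50.4 ± 11 to 110.3 ± 31.9 CPM (log2 1.12 ± 0.17, adjusted p = 2.87e-05). Fads1 remained at 27.7, 30.4 and 30.2 CPM, level with LPS alone (log2 -0.03 ± 0.10, adjusted p = 0.866). Elovl6, a fatty acid elongase, was called lower although the groups overlapped, with 23.5, 18 and 15 CPM under LPS and 7.07, 16.6 and 9.3 CPM with both (log2 -0.80 ± 0.23, adjusted p = 0.00574).

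The cholesterol exporters went down as the sterol enzymes went up. Abca1 fell from 249, 198 and 225 to 88, 116 and 92.9 CPM (log2 -1.18 ± 0.11, adjusted p = 1.1e-08). Abcg1 fell from 46.3, 26.8 and 37.2 to 4.67, 6.17 and 6.04 CPM, 6.58-fold lower (log2 -2.72 ± 0.25, adjusted p = 5.8e-08). Ch25h fell from 367, 395 and 344 to 11.9, 12.3 and 16.8 CPM, 26.9-fold lower (log2 -4.75 ± 0.19, adjusted p = 1.25e-13). No combined library reached the lowest LPS library for any of these 3 genes. Nr1h3, which encodes liver X receptor alpha, instead rose from 48.6, 43.5 and 52.8 to 97.1, 98.7 and 95 CPM (log2 1.01 ± 0.08, adjusted p = 1.37e-12). Mylip was called higher (log2 0.28) and Nr1h2 lower (-0.16), but both calls were lost without LPS library 2 (adjusted p = 0.0683 and 0.0704), and that of Nr1h2 without LPS library 1 (0.0705) and combined library 1 or 2 (0.0703 and 0.1). Scaled by library size only, Nr1h2 was at 0.06. Of the 4 liver X receptor targets 1 was higher and 2 lower, against 23.9% and 25.4% of all genes, with a median of -0.55. With scaling by library size only, 2 were higher and 2 lower, against 5974 and 2365 of the 14985 genes tested.

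**Figure D3:**
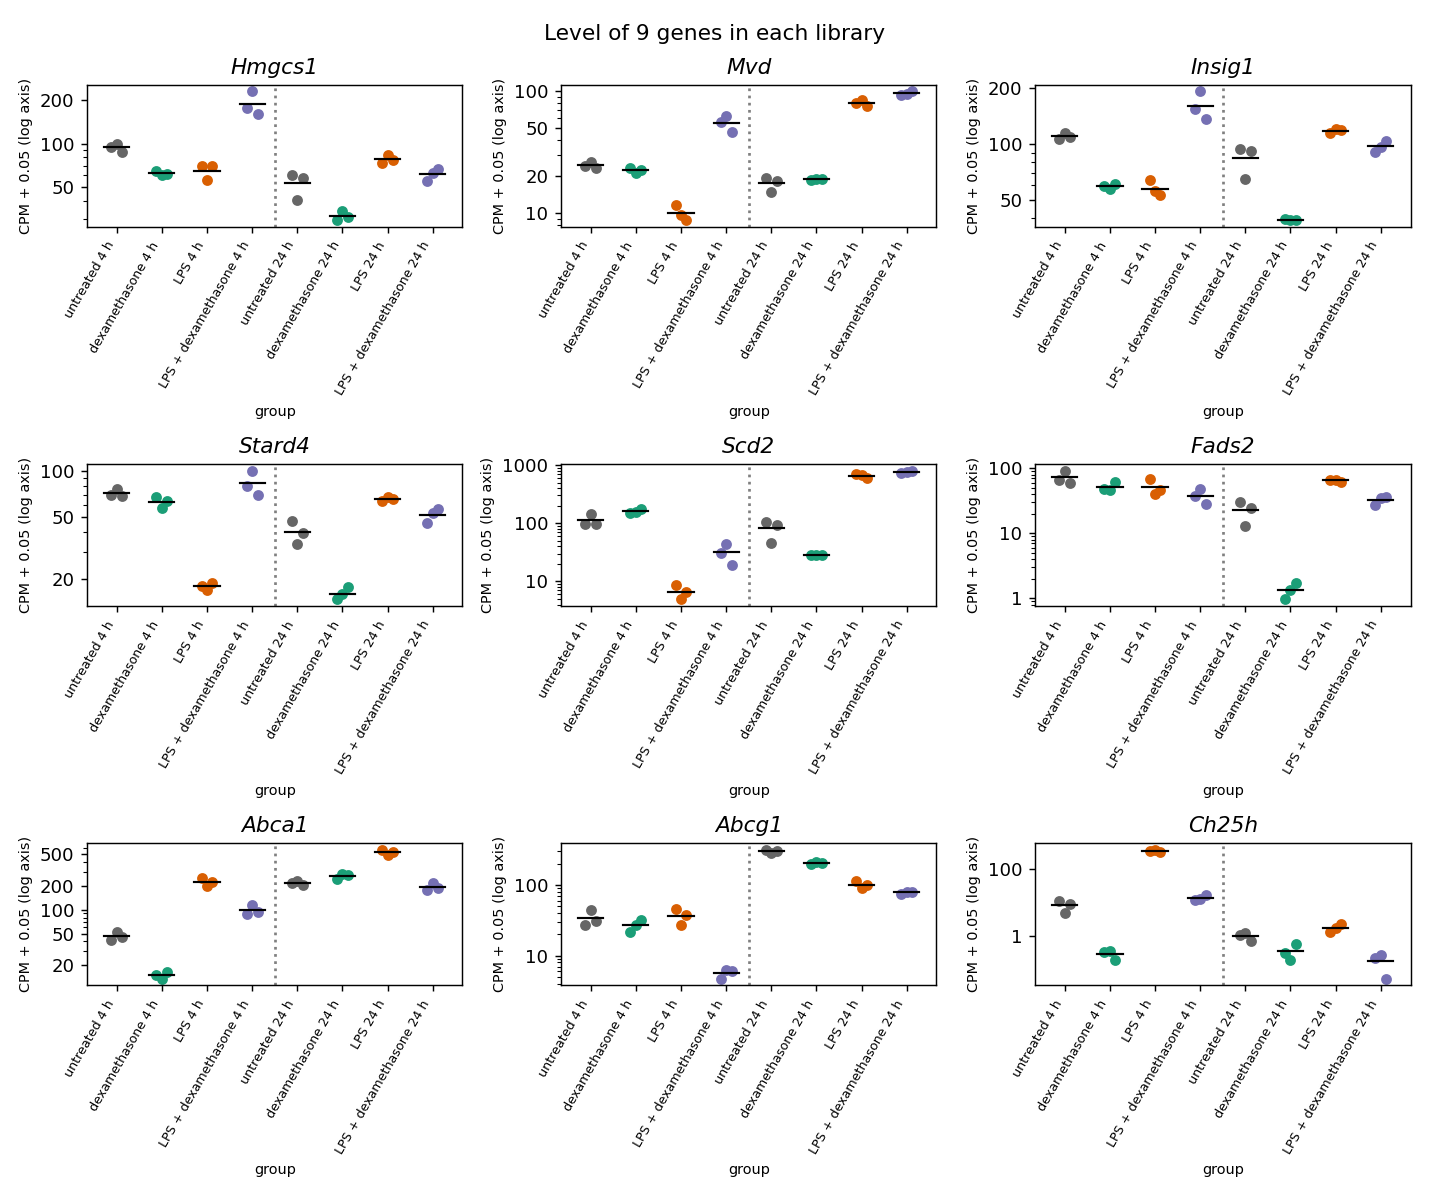
Each panel shows 1 gene, with 1 point per library, a bar at the group mean and CPM + 0.05 on a log axis; the dotted line separates 4 h from 24 h. At 4 h Hmgcs1, Mvd, Insig1 and Stard4 are higher in the combined group than in LPS alone, while Abca1, Abcg1 and Ch25h are lower.

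A test of whether the dexamethasone effect differed with and without LPS at 4 h called 29 of the 38 genes, against 38.7% of all genes, 25 of them higher and 4 lower (all genes 20.8% and 17.9%). In the sterol list 18 of 20 were higher and 0 lower, with a median of 1.77 against 0.03. For Insig1 dexamethasone gave -0.89 without and 1.48 with LPS (difference 2.37 ± 0.17, adjusted p = 6.44e-10). For Hmgcs1 it gave -0.60 and 1.55 (difference 2.15 ± 0.20, adjusted p = 6.48e-08). Both genes fell without LPS and rose with it. Abcg1 differed the other way, with -0.34, not called, and -2.72 (difference -2.38 ± 0.32, adjusted p = 1.13e-05). Ch25h fell in both settings, and the 2 falls could not be told apart at this precision (difference log2 0.40 ± 0.72, adjusted p = 0.716).

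At 24 h the same comparison under LPS gave small differences for sterol genes and a clear fall of Abca1. Of the 38 genes 3 were higher and 15 lower, against 21% and 22.6% of all genes, so the share higher was below that of all genes. In the sterol list 6 of 20 fell and 1 rose, with a median of -0.22 against 0.00. That count fell to 2 without LPS library 2, to 3 without LPS library 3 and to 2 without combined library 1, and the count over all 38 genes to 9 without combined library 1. The falls of Hsd17b7 (log2 -0.59 ± 0.13, adjusted p = 0.000278) and Sc5d, a sterol desaturase (log2 -0.50 ± 0.14, adjusted p = 0.00736), were called with every library left out in turn. Hsd17b7 had 26.2, 27.8 and 25.9 CPM under LPS and 17.1, 17.1 and 18.7 CPM with both. Stard4 had 63.5, 67.5 and 65.6 CPM and 45.8, 53.3 and 56.3 CPM (log2 -0.34 ± 0.12, adjusted p = 0.0223), and its call was lost without LPS library 2 or 3 or combined library 1 (adjusted p = 0.0668, 0.0542 and 0.119). Mvd was 81, 84.6 and 76.2 CPM and 93.6, 95.6 and 100.1 CPM (log2 0.26 ± 0.08, adjusted p = 0.0111), a rise lost without LPS library 3 (adjusted p = 0.063).

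Fatty acid genes were split at 24 h under LPS, with 1 higher and 3 lower of 8 (all genes 21% and 22.6%) and a median of -0.17. Scd1 rose from 22.6, 18.8 and 16.9 to 31.3, 37.8 and 43.4 CPM (log2 0.95 ± 0.22, adjusted p = 0.00119). Fads1 fell from 112, 115 and 116 to 66.2, 78.7 and 80.9 CPM (log2 -0.60 ± 0.09, adjusted p = 2.57e-06), and Fads2 from 67.5, 67.1 and 61.1 to 27.4, 35.2 and 36.4 CPM (log2 -0.98 ± 0.27, adjusted p = 0.00633). Scd1 and the Fads genes thus went opposite ways. Scd2, the most abundant of the 38 genes per exon length on average over the 8 groups, was 722, 772 and 803 CPM with both and 691, 678 and 602 CPM with LPS (log2 0.22 ± 0.24, adjusted p = 0.5). Abca1 fell from 573, 498 and 542 to 179.9, 217 and 189 CPM, 2.75-fold lower with no overlap (log2 -1.46 ± 0.11, adjusted p = 2.69e-10). The other exporter, Abcg1, was not called (log2 -0.37 ± 0.17, adjusted p = 0.0943). Ch25h was at 0.157, 0.207 and 0 CPM, from 3, 4 and 0 counts, against 1.19, 1.67 and 2.23 CPM under LPS (log2 -3.73 ± 0.84, adjusted p = 0.0013). Nr1h3 fell (log2 -0.42 ± 0.08, adjusted p = 4.46e-05), after its rise at 4 h.

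The effect of dexamethasone under LPS differed between the times for 26 of the 38 genes, against 38.8% of all genes, 2 higher and 24 lower at 24 h (all genes 19% and 19.8%). Of the 20 sterol targets 17 were lower and 0 higher, with a median of -1.64 against -0.02. Stard4 differed by -2.57 ± 0.18 (adjusted p = 4.81e-11) and Hmgcs1 by -1.89 ± 0.20 (adjusted p = 4.18e-07). Abcg1 differed by 2.35 ± 0.31 (adjusted p = 8.5e-06), after a fall at 4 h and no call at 24 h. For Abca1, which fell at both times, the difference was not called (log2 -0.28 ± 0.15, adjusted p = 0.151). At 24 h the dexamethasone effect also differed with and without LPS for 22 of the 38 genes, against 38.2% of all genes, 17 upward and 5 downward (all genes 20.5% and 17.7%), and for 11 and 1 of the sterol targets. Scd1 (difference 3.64 ± 0.43, adjusted p = 7.86e-07) and Fads2 (3.12 ± 0.56, adjusted p = 0.000221) led. Scd1 fell without LPS (-2.69) and rose with it (0.95), and Fads2 fell in both settings (-4.11 and -0.98). Abca1 differed downward (-1.78 ± 0.15, adjusted p = 3.68e-09).

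Set against untreated cells, the combined treatment raised more sterol targets than it lowered at 4 h, and the 3 lowered ones are late enzymes. Calls were higher for 18 of the 38 genes and lower for 12, against 33.7% and 36.5% of all genes, so the share lower was below that of all genes. Among the sterol targets 11 of 20 rose and 3 fell, with a median of 0.31 against -0.05. These counts depend on the scaling. Scaled by library size only, 7 of the 38 genes were higher and 20 lower, and 5 and 9 of the sterol targets. In that setting the median of all genes shifts by -0.55, and 2710 of the 14985 genes tested were higher and 8905 lower. Hmgcs1 was 178, 231 and 159 CPM against 94.9, 99.9 and 88 CPM (log2 1.00 ± 0.14, adjusted p = 2.53e-06), and Mvd 55.9, 62.7 and 46 CPM against 24.3, 26.1 and 23.6 CPM (log2 1.15 ± 0.09, adjusted p = 1.73e-13). Tm7sf2, Ebp and Dhcr7 were those that fell (log2 -0.88 ± 0.14, -0.37 ± 0.08 and -2.01 ± 0.14). Stard4 and Msmo1, low with LPS alone, were not called (log2 0.22 ± 0.11, adjusted p = 0.0862, and log2 -0.11 ± 0.11, adjusted p = 0.413), with Stard4 at -0.33 when scaled by library size only. Fatty acid genes remained low, with 6 of 8 lower and 1 higher and a median of -0.80 (6 and 0 when scaled by library size only). Fads1 was 5.62-fold below untreated cells (log2 -2.49 ± 0.10, adjusted p = 1.5e-18).

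At 24 h the combined treatment left most synthesis genes above untreated cells. Of the 38 genes 20 were higher and 7 lower, against 28.8% and 30.3% of all genes. The lower count was 4 without combined library 3. Of the 20 sterol targets 12 rose and 1 fell, with a median of 0.48 against 0.00. Mvd stood 5.52-fold above untreated cells (log2 2.47 ± 0.09, adjusted p = 3.39e-22), and Scd2 9.48-fold (log2 3.25 ± 0.27, adjusted p = 6.71e-09). Scd1 went from 8.47, 3.95 and 6 CPM untreated to 31.3, 37.8 and 43.4 CPM with both (log2 2.62 ± 0.24, adjusted p = 7.09e-09). Fads1 was again lower (log2 -0.75 ± 0.09, adjusted p = 3.47e-08). Abca1, at 179.9, 217 and 189 CPM, was not called against the 215, 229 and 204 CPM of untreated cells (log2 -0.15 ± 0.10, adjusted p = 0.249), and Abcg1 was lower (log2 -1.93 ± 0.17, adjusted p = 1.5e-08).

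Side by side, the sterol regulatory element targets of sterol metabolism mostly moved together in a comparison. The 4 liver X receptor targets (Abca1, Abcg1, Mylip and Srebf1) often did not. The 8 fatty acid genes, also counted as sterol regulatory element targets, did not always move with the sterol list. With dexamethasone under LPS at 4 h, 18 sterol targets rose and 0 fell, against 23.9% and 25.4% of all genes. Of the fatty acid genes 2 rose and 1 fell. With scaling by library size only, 5 of them rose and 1 fell, against 5974 and 2365 of the 14985 genes tested. With LPS alone at 4 h, 17 sterol targets fell and 0 rose, against 38.8% and 34.2% of all genes. Abca1 rose there, and Mylip and Srebf1 fell. With LPS alone at 24 h, 18 sterol targets rose and 1 fell, against 29.7% and 30.6% of all genes. Abca1 and Srebf1 rose there, and Abcg1 and Mylip fell. At 4 h the mean log2(CPM + 0.5) of the sterol targets, relative to untreated cells, was -0.37 ± 0.07 with dexamethasone, -0.87 ± 0.17 with LPS and 0.27 ± 0.21 with both (SD, n = 3). For the liver X receptor targets the same means were -0.71 ± 0.10, 0.34 ± 0.17 and -0.51 ± 0.12. LPS and the combined treatment thus put the means of the 2 lists on opposite sides of untreated cells, but scaled by library size only neither opposition held. The sterol mean was then -1.61 ± 0.15 with LPS and -0.27 ± 0.22 with both, and the liver X receptor mean -0.43 ± 0.18 and -1.05 ± 0.10 (SD, n = 3). The median of the liver X receptor targets with LPS was -0.13, of opposite sign to their mean, with Abca1 the highest of the 4. At 24 h the sterol means were -0.77 ± 0.05, 0.82 ± 0.08 and 0.62 ± 0.10, and the liver X receptor means -0.09 ± 0.04, -0.07 ± 0.11 and -0.58 ± 0.07. The 8 fatty acid genes lay at -0.03 ± 0.12, -1.21 ± 0.29 and -0.82 ± 0.29 at 4 h and at -1.08 ± 0.11, 1.34 ± 0.04 and 1.18 ± 0.16 at 24 h. Scd1, Scd2 and Fasn also answer to liver X receptors through Srebf1 but were counted only with the fatty acid genes, so the lists are not fully separate. These means are descriptions, since the lists were drawn up with earlier results known and carry no test of their own.

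**Figure D4:**
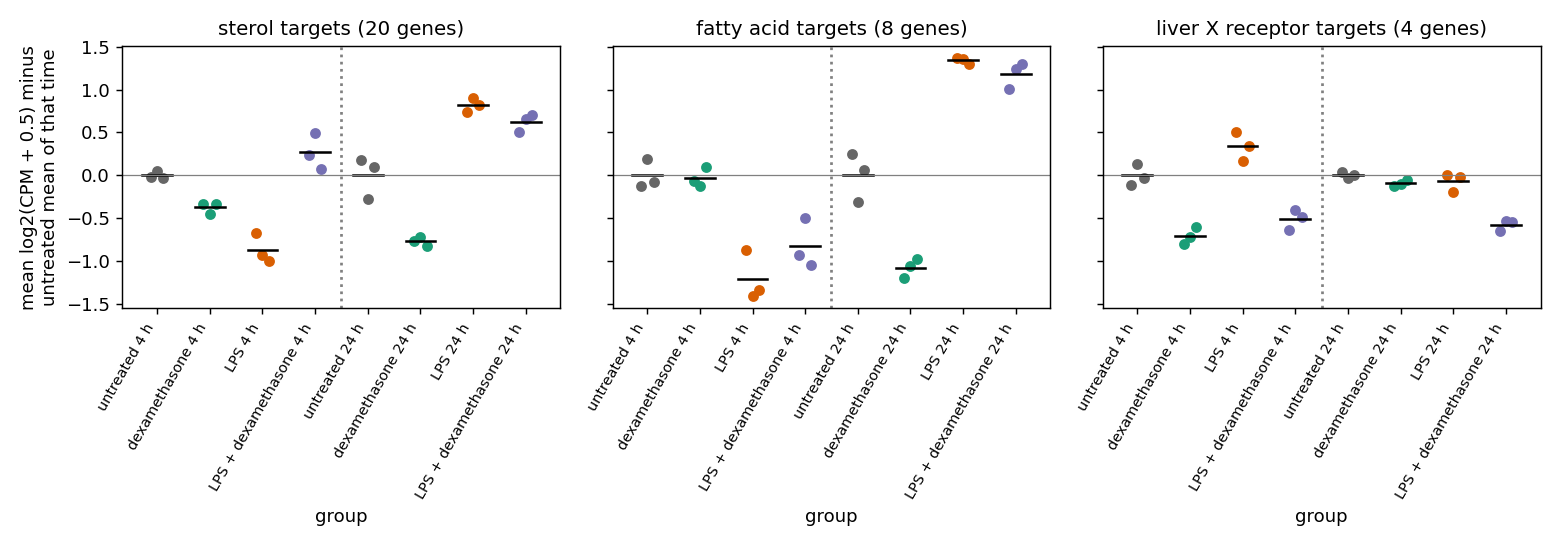
Each point is 1 library, showing the mean log2(CPM + 0.5) over the genes of a list minus the untreated mean of that time, with bars at group means; the panels hold 20 sterol, 8 fatty acid and 4 liver X receptor target genes. At 4 h the combined libraries lie at 0.07 to 0.49 for sterol targets and the LPS libraries at -1.0 to -0.68, with TMM scaling. Scaled by library size only, the combined mean of the sterol targets is -0.27 and the LPS mean of the liver X receptor targets -0.43, both below untreated cells.

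Compared per exon length, as CPM per kilobase of exon (RPKM) averaged over the 8 groups, Scd2 had the highest level of the 38 genes at 42.1 and Fdps the lowest at 0.789. Ch25h came second at 35.5, with 266 RPKM under LPS at 4 h against 0.0875 RPKM in the combined group at 24 h. Ebp varied least, between 13.9 and 19 RPKM over the groups, followed by Insig2 and Nr1h2. Dexamethasone at 24 h gave the lowest group mean for 21 of the 38 genes, and the combined treatment at 4 h the highest for 13.

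Genes of the same pathways outside the 38 were counted in the same way, and are set against the shares of all genes higher and lower. With LPS at 4 h (all genes 34.2% and 38.8%), 1 rose and 3 fell of 5 further sterol genes, and 2 rose and 2 fell of 4 genes of SREBP processing. With LPS at 24 h (29.7% and 30.6%), all 5 further sterol genes rose. With dexamethasone alone at 24 h (21.9% and 26.5%), 1 of them rose and 4 fell. With dexamethasone under LPS at 4 h (23.9% and 25.4%), 4 further sterol genes rose and 0 fell, 0 rose and 2 fell of the 4 processing genes, 5 rose and 2 fell of 11 further fatty acid genes, and 0 rose and 3 fell of 5 further liver X receptor targets. At 24 h under LPS (21% and 22.6%) these counts were 3 and 4 for the fatty acid genes and 1 and 2 for the liver X receptor targets.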

How the data were processed

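RNA was sequenced as read pairs from 24 libraries in 8 groups of 3. The deposited values are raw gene counts, made with featureCounts 2.0.0 on GENCODE M29 exons, counting pairs without regard to strand, per the file headers. By the defaults in that header, pairs that match several genes or places are not counted, which lowers genes with copies or overlapping neighbours. Alignment was with STAR, and GRCm38 is named, per the submitters' processing notes, whereas GENCODE M29 belongs to a later build, so the build is uncertain.

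Of 55357 genes, 14985 passed edgeR's filterByExpr. Counts were scaled by TMM (factors 0.679 to 1.184) and tested with edgeR 4.0.16 in R 4.3.3, by a quasi-likelihood fit of all 24 libraries with 8 group means and a robust estimate of the spread, and p-values were adjusted by Benjamini-Hochberg over the 14985 genes. The log2 fold changes are edgeR's, CPM is counts per 1000000 of the TMM-scaled library, and RPKM divides it by exon length. The standard error is the log2 fold change divided by the square root of F. Between libraries of 1 group, chi-square per gene was 3.21 to 8.93, above sampling noise, so none was counted as a repeat. The fit was tested on simulated counts. Precision is set by the spread of 3 libraries per group, with a coefficient of variation of 6.29% between libraries in the fit.

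Members and lists were chosen with earlier results of these data known. Genes outside the 38 are named where they are among the 2 largest called rises or falls of their list in a main comparison at 1 CPM or more, together with the known targets of each treatment. Alternatives were RLE scaling, library size only, no filter, a fit per time, a replicate block, DESeq2 1.42.0 and leaving out each library. Promoter sequences come from RefSeq.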

Additional observations from a re-analysis of the deposited data

Results flagged for a closer look

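The dexamethasone effect differed with and without LPS for 29 of the 38 genes at 4 h (38.7% of all genes) and for 22 at 24 h (38.2%). It differed between the times for 26 under LPS (38.8%) and 20 without it (30.7%). The LPS effect differed between the times for 33 (61.3%). Each is a test of the difference itself in edgeR, adjusted by Benjamini-Hochberg over 14985 genes.

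Between 4 h and 24 h the LPS effect on Scd2, a fatty acid desaturase, differed by log2 7.08, the widest of the 38 genes. Mvd of the mevalonate pathway differed by 3.50 and the sterol carrier Stard4 by 2.72, while the exporter Abca1 differed by -0.95. The dexamethasone effect under LPS differed between the times by -2.57 for Stard4, -1.89 for Hmgcs1 and 2.35 for Abcg1. Without LPS it differed by -3.64 for Fads2 and 1.95 for Abca1.

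Adding LPS changed the dexamethasone effect at 4 h by 2.15 for Hmgcs1, 2.37 for Insig1 and -2.38 for Abcg1. At 24 h it changed that effect by 3.64 for Scd1, 3.12 for Fads2 and -1.78 for Abca1. Groups of 3 libraries were not tested for single libraries that stand apart.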

How the results depend on the processing

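Over the 14 comparisons, 38 genes and all alternatives, 7072 of 7372 values kept their side of the threshold, 110 became called, 170 lost the call, and 20 changed sign with a call in either setting, all 20 under library size only. A further 114 values changed sign with a call in neither setting (75 with a library left out and 18 under library size only), and are counted among the 7072. Under library size only, the median of all genes shifts by -0.77 for LPS at 4 h and 0.57 for the LPS effect between times, and all genes were higher and lower in 2434 and 9779 cases for LPS at 4 h, 5974 and 2365 for dexamethasone under LPS at 4 h, 2710 and 8905 for the combined treatment at 4 h, 5279 and 1566 for the interaction at 4 h, and 7692 and 2573 for the LPS effect between times, with 4808 lower for the dexamethasone effect under LPS between times. Of the 38 genes, 2 were higher for LPS at 4 h, 7 and 20 higher and lower for the combined treatment at 4 h (5 and 9 of the sterol targets), and 2 lower for the interaction at 4 h. Signs changed for LPS at 4 h in Insig2 (-0.67), Acss2 (-0.55), Nr1h2 (-0.10), Srebf2 (-0.39), Acat2 (-0.57) and Abcg1 (-0.65), and for dexamethasone under LPS at 4 h in Nr1h2 (0.0597). For the combined treatment at 4 h they changed in Insig2 (-0.48), Acss2 (-0.0473), Pmvk (-0.14), Mvk (-0.42), Nr1h2 (-0.0370), Sc5d (-0.19), Scap (-0.20), Lss (-0.38), Srebf2 (-0.0303), Stard4 (-0.33) and Nsdhl (-0.28), and for the LPS effect between times in Srebf2 (0.49) and Ebp (0.55). The cause was not tested. Sterol targets higher for dexamethasone under LPS at 24 h numbered 2, not 1, under RLE scaling, library size only, the fit per time and the replicate block. RLE scaling and DESeq2 gave 1 sterol target higher for LPS at 4 h and 0 lower for the combined treatment at 24 h. Leaving out 1 library gave, for sterol targets, 0 to 1 higher for LPS at 4 h, 0 to 1 higher for dexamethasone alone at 4 h, 0 to 1 lower for dexamethasone under LPS at 4 h, 0 to 2 higher and 2 to 6 lower for it at 24 h, and 0 to 1 lower for the combined treatment at 24 h. For all 38 genes it gave 9 to 14 lower for dexamethasone under LPS at 24 h and 4 to 7 lower for the combined treatment at 24 h. The replicate numbers share no origin in the labels, and same-numbered libraries deviated together by correlations of -0.045 to 0.051, so the block pairs only numbers. Depth limits Ch25h after dexamethasone and Fdps throughout.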

Other observations

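Genes of lipid handling outside the 38 moved as well. Lpl, which frees fatty acids from lipoproteins, went from 7858, 6715 and 7571 CPM in untreated cells to 735, 534 and 567 CPM with LPS at 24 h (log2 -3.59 ± 0.19, adjusted p = 8.58e-12 in edgeR's test). Me1, the malic enzyme that supplies NADPH for fatty acid synthesis, went from 2.08, 1.88 and 1.88 to 20.5, 17.2 and 18.2 CPM with LPS at 24 h (log2 3.26 ± 0.16, adjusted p = 8.08e-20), and stood at 3.19, 2.12 and 2.13 CPM when dexamethasone was added (log2 -2.91 ± 0.16, adjusted p = 7.19e-18). Both genes left no overlap between groups. Elovl5, an elongase of polyunsaturated fatty acids, rose with dexamethasone at 4 h alone and under LPS (log2 1.46 ± 0.07 and 1.21 ± 0.07). At 24 h it was also higher, at 139.5, 140 and 131 CPM with dexamethasone against 84.9, 79.7 and 86.5 CPM untreated. With both agents at 24 h it had 172, 147.5 and 151 CPM, against 69, 68.6 and 72.4 CPM with LPS.

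Among further liver X receptor targets, Arl4c, a small GTPase, had 12.9, 9.48 and 12.8 CPM with LPS and 1.25, 1.27 and 2.16 CPM with both at 4 h (log2 -2.90 ± 0.16, adjusted p = 2.83e-17 in edgeR's test), and 50.6, 50.6 and 51.9 and 9.95, 11.7 and 11.2 CPM at 24 h (log2 -2.22 ± 0.09, adjusted p = 5.09e-21). Pltp, the phospholipid transfer protein, fell with dexamethasone under LPS at 24 h (log2 -1.61 ± 0.05, adjusted p = 2.37e-24). Smpdl3a, of the same list, rose in that comparison, from 356.5, 396 and 379 to 617, 596 and 562 CPM (log2 0.65). Of these 5 further targets 1 was higher and 2 lower there.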
